A study of Mus musculus with 12 samples.

Results

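Fatty acid oxidation genes were examined in an ATAC-seq series of mouse bone marrow derived macrophages, in which the transposase Tn5 marks open chromatin. The members are Cpt1a, Slc25a20, Cpt2, Acadvl, Acadm, Hadha, Hadhb, Acaa2 and Acox3, and every peak that the deposited tables assign to one of these symbols was taken. This gave 55 peaks of 139999, in 9 genes of 19395. The series holds 12 libraries in 6 groups of 2. All cells came from male C57BL/6J mice aged 8 weeks at allocation, with no genetic change stated. The groups are diabetic and healthy cells of a first phase, diabetic-trained and untrained cells of a rest phase, and diabetic-trained and untrained cells of a second phase. Diabetic mice had received streptozotocin, which destroys insulin-producing beta cells, at 42 to 45 mg/kg daily for 5 days after a 12 h fast. Those above 16.9 mmol/L blood glucose were used after 6 weeks of hyperglycaemia. Cells of the rest phase were marrow progenitors that had grown in M-CSF and 5 mmol/L glucose over 7 days. Those of the second phase had a further 16 h with LPS (100 ng/mL) and IFN-γ (10 ng/mL). No time of collection is stated for the first phase. Nor is it stated that libraries of 1 group are from different mice, so p-values here reflect differences among libraries that may be only technical.

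Fatty acids enter mitochondria as carnitine esters. Cpt1a, on the outer membrane, loads the acyl group onto carnitine and is the main control point of the route. Slc25a20 carries the acylcarnitine across the inner membrane, and Cpt2 returns the acyl group to coenzyme A. Each turn of beta-oxidation then begins with an acyl-CoA dehydrogenase (Acadvl for very long chains, Acadm for medium chains). The trifunctional protein of Hadha and Hadhb takes long chains through the later steps, and the thiolase Acaa2 releases acetyl-CoA from shorter ones. Acox3 is a peroxisomal oxidase of branched-chain acyl-CoAs. Macrophages activated by IL-4 are known for high fatty acid oxidation, and those activated by IFN-γ with LPS for glycolysis.

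The 55 peaks, each 400 bases wide, were spread unevenly. Cpt1a had 13, Acaa2 11, Acox3 9, Hadha 7, Acadm 5, Slc25a20 5, Cpt2 3, and Acadvl and Hadhb 1 each. By the deposited annotation 21 lay within 1 kb of a transcript start, 9 at 1 to 3 kb, 8 in introns, 2 in exons, 1 in a 3′ UTR, 1 just downstream of a gene and 13 in distal intergenic sequence. Symbols follow the nearest annotated start, so a peak need not act on the gene it is named for. Reads per library ran between 1 and 1311 over these peaks, and 20 peaks averaged at least 50 reads.

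RefSeq promoter windows (GRCm38.p6, the same assembly as mm10) ran over 250 bases before the start and 50 from the start on. They were taken for 8 of the 9 genes. Acaa2 was left out of this search, so its promoter was not examined for the motifs below. The 4 printed below belong to starts whose peaks carry the results. Capitals mark matches on either strand to the SP box GGGCGG, the ETS core CCGGAAG and the nuclear receptor hexamer AGGTCA. The Cpt1a window is chr19:3323051-3323350, plus strand, and a peak covers 240 of its bases. The Slc25a20 window is chr9:108661886-108662185, plus strand, of which 296 bases are in a peak. That of Hadha is chr5:30154931-30155230, minus strand, with 260 bases in a peak, and that of Acox3 is chr5:35582784-35583083, plus strand, with 127.
Cpt1a: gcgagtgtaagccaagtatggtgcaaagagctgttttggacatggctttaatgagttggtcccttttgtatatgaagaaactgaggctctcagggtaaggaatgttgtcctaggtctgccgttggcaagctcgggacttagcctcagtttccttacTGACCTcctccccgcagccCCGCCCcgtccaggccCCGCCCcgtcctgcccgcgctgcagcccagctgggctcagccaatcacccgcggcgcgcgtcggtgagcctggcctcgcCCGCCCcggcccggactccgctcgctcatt
Slc25a20: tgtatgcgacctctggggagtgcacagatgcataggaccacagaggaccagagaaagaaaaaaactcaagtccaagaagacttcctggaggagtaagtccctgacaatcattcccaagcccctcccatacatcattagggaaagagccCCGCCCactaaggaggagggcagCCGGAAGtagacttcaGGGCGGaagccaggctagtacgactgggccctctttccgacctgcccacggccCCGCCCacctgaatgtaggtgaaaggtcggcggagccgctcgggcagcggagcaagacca
Hadha: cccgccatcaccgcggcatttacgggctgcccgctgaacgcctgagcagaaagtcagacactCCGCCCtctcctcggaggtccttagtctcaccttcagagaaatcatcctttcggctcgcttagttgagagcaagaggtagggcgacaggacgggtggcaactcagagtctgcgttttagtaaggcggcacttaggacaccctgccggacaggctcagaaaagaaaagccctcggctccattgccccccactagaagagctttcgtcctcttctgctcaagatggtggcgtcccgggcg
Acox3: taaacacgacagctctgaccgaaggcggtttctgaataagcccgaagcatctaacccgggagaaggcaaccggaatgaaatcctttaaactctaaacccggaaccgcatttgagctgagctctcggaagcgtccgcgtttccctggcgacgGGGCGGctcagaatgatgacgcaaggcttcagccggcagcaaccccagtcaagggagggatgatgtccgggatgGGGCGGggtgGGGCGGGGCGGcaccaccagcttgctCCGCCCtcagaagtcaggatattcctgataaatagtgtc
The SP box was found in 35.7% of all 32851 RefSeq windows and, in these genes, in the windows of Cpt1a, Slc25a20, Cpt2, Hadha, Hadhb and Acox3. The ETS core was in 8.86% of all windows, and here in those of Slc25a20 and Cpt2. The hexamer AGGTCA was in 16.3% of all windows, and here in Cpt1a, Acadvl and Acadm. Its direct repeat with 1 base between (DR1, 0.0396% of all windows), which holds the hexamer, and the interferon element core, GAAA repeated with 2 bases between (3.44%), were in none of the 8. The AP-1 site TGANTCA (7.81% of all windows) was in that of Acadvl. Hadha and Hadhb are divergent genes: their starts are 273 bases apart, their windows share 228 bases, and a single peak lies over both starts.

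The deposited tables give 1 mean for each of the groups of a phase, and no header ties a mean to diabetic or control cells. Group A is therefore the one listed first in a table and group B the other, and A of one phase need not be A of another. Whole reads of each library were recovered from these means, and libraries are numbered 1 and 2 in an order that is not that of the labels. Levels below are log2 (reads + 1) after quantile scaling over all 12 libraries. Depth was 4180015 to 9057318 reads in peaks in the first phase, 5454821 to 18602644 in the rest phase and 3827344 to 17980427 in the second, with both rest-phase A libraries deeper than both B libraries. The first-phase A libraries varied against each other about as sampling would have it (variance ratio 1.13, against 2.07 to 15.7 for the other pairs), and were counted as 1 sample where phases are compared. Second-phase libraries A1 and B1 went against their label. Over 155 peaks of 18 IFN-γ and LPS response genes, a list chosen after seeing the data, they averaged levels of 4.83 and 4.85, against 5.95 in A2 and 6.14 in B2, and 4.81 to 4.84 in the 4 rest-phase libraries. Across all peaks A1 had a Spearman correlation of 0.971 with rest-phase A1 and 0.778 with second-phase A2, and B1 one of 0.854 with rest-phase A1 and 0.662 with second-phase B2. Second-phase results are given with and without these libraries.

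Cell type markers also moved between phases. Mean levels over 45 neutrophil peaks were 6.23 to 7.15 in the first phase, 3.77 to 4.45 in the rest phase and 3.85 to 4.30 in the second, and those over 72 macrophage peaks were 4.95 to 5.26, 5.64 to 5.92 and 5.68 to 5.93. In the first phase the neutrophil list thus stood above the macrophage list, against the label of macrophages, and below it in the other phases. The T and NK cell list, at 5.43 to 5.62, was also above it in the first phase. B cell (4.78 to 6.08) and erythroid levels (4.81 to 5.53) overlapped with it. Levels of different lists also depend on the peaks they hold. Over all peaks 19.8% were higher and 18.9% lower in the rest phase than in the first. In that comparison 0 neutrophil peaks were higher and 36 lower, and 33 macrophage peaks were higher and 5 lower. B cell peaks (4 higher, 32 lower of 56), erythroid peaks (3 higher, 17 lower of 34) and T and NK cell peaks (1 higher, 13 lower of 27) had more lower than higher calls as well, under each of 3 scalings. Stromal peaks had 7 higher and 15 lower of 86 with quantile scaling, but 13 higher and 4 lower with total reads, and 11 and 2 with the authors' scaling. The markers Vpreb1 and Cd3g had no peak. The share of reads in peaks within 1 kb of a start was 48.8% to 59.1% in the first phase, 33.4% to 41.9% in the rest phase and 27.1% to 37.7% in the second. In bulk libraries a smaller share of a cell type and less open chromatin per cell cannot be told apart. The part of cell makeup and of the promoter share in the differences between phases below was not tested.

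Over all 55 peaks, mean levels of the fatty acid oxidation genes lay in nearly the same range in the 3 phases: 5.40 to 5.69 in the first, 5.41 to 5.61 in the rest phase and 5.42 to 5.64 in the second. For each gene the strongest peak within 1 kb of any annotated start was taken as its start peak. For Cpt1a this was chr19:3376933-3377332, at an inner transcript, and not the peak over its RefSeq start (chr19:3323111-3323510). The order of mean start levels was Acadm 9.46, Acaa2 8.86, Cpt2 8.64, Acox3 8.04, Cpt1a 7.99, Hadha 7.65, Slc25a20 7.22, Acadvl 7.09 and Hadhb 4.79. The ranges over libraries of each neighbouring pair down to Acadvl overlapped, and only that of Hadhb, 4.34 to 5.42, lay apart from its neighbour. The Hadhb peak lies 577 bases into the gene, since the peak over its start carries the symbol Hadha.

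**Figure D1:**
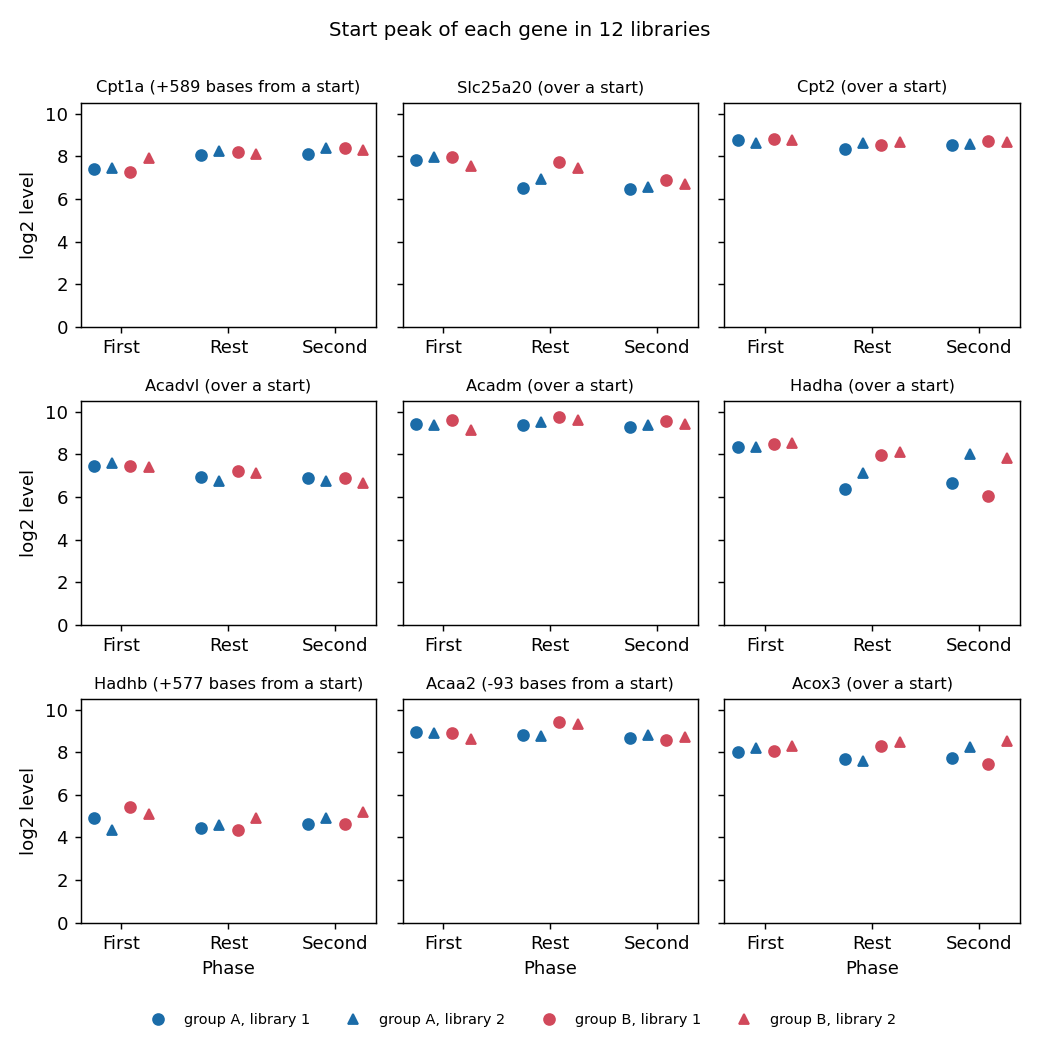
Log2 level (quantile-scaled reads + 1) of the start peak of each gene in the 12 libraries, by phase. Circles and triangles are libraries 1 and 2 of groups A (blue) and B (red). The Cpt1a peak shown lies 589 bases into an inner transcript and not over its RefSeq start. Acadm and Cpt2 stay within narrow bands, while Hadha and Slc25a20 lie lower in most rest-phase and second-phase libraries than in the first phase.

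The rest phase was set against the first phase to see where these loci differ after culture with M-CSF. Among the 55 peaks 6 were higher and 8 lower (14 called, or 25.5%, by limma with a Benjamini-Hochberg adjusted p under 0.05). Over all 139557 peaks tested 38.8% were called, 19.8% higher and 18.9% lower. Their median log2 fold was -0.01, against 0.02 over all peaks. With scaling to total reads, which moved the median of all peaks to 0.30, there were 11 higher and 5 lower (background 39.8%, of which 26.4% higher and 13.4% lower). With the authors' scaling (median of all peaks 0.74) there were 6 higher and 0 lower (background 28.5%, of which 23.5% higher and 4.99% lower). None of the 8 lower peaks passed with the authors' scaling, and of the 6 higher ones Cpt1a at chr19:3376933-3377332 (log2 fold 1.35, adjusted p = 0.116) and Cpt2 at chr4:107935212-107935611 (1.71, 0.0631) did not. Of the 21 peaks within 1 kb of a start 3 were higher and 4 lower, beside 12.4% higher and 32.3% lower among all such peaks. The 41 peaks that did not pass had log2 folds of -0.79 to 1.11.

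Among the transport genes the largest change was inside Slc25a20. Its peak at chr9:108665187-108665586, in intron 1 of 8, had levels of 6.06, 5.75, 5.24 and 5.26 in the rest phase (A1, A2, B1, B2), against 3.22, 2.25, 2.70 and 1.97 in the first phase. Every rest-phase library was above every first-phase library. Behind these levels stood 153, 105, 22 and 33 reads in the rest phase, against 3, 1, 5 and 3 in the first. The log2 fold was 3.19 (SE 0.36, limma adjusted p = 1.32e-05), or 2.52 (1.38e-05) with a pseudocount of 5, and the 4 second-phase libraries stayed near the rest phase at 5.70, 4.86, 5.41 and 5.47. The peak over the Slc25a20 start (chr9:108661890-108662289), whose window holds the ETS core, had levels of 6.54, 6.93, 7.74 and 7.46 in the rest phase, against 7.85, 7.97, 7.96 and 7.53 in the first. These groups overlapped, and the log2 fold of -0.67 (SE 0.28) did not pass (limma adjusted p = 0.0705).

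Cpt1a changed in both directions along the gene. The peak over its RefSeq start (chr19:3323111-3323510), printed above, had levels of 7.42, 7.52, 7.80 and 7.84 in the rest phase, against 8.41, 8.41, 8.40 and 8.22 in the first phase. The groups did not overlap, and the log2 fold was -0.76 (SE 0.19, limma adjusted p = 0.00512). The peak 371 bases before an annotated start (chr19:3321564-3321963) moved the other way. It had levels of 7.85, 7.92, 8.01 and 7.91 in the rest phase, against 6.87, 7.15, 6.58 and 7.21 in the first, a log2 fold of 1.04 (SE 0.21, limma adjusted p = 0.0012). The Cpt1a start peak by level (chr19:3376933-3377332), 589 bases into an inner transcript, was higher as well, at 8.08, 8.27, 8.22 and 8.12 in the rest phase, against 7.42, 7.45, 7.25 and 7.92 in the first phase (log2 fold 0.69, SE 0.20, limma adjusted p = 0.0136). Without first-phase library B1 it did not pass (log2 fold 0.50, adjusted p = 0.0806), nor with the authors' scaling. A further 3 Cpt1a peaks inside the gene were lower, with log2 folds of -1.31 (SE 0.28) at chr19:3334049-3334448 and -0.92 (SE 0.30) at chr19:3339191-3339590, while chr19:3341035-3341434 fell by 1.00 (SE 0.33) on the same scale. With the authors' scaling none of these 3 passed, and chr19:3339191-3339590 was at 0.04. That peak did not pass without rest-phase library A1 (adjusted p = 0.0579) or A2 (0.0523), nor with total reads (-0.42, 0.302). The peak at chr19:3341035-3341434 did not pass without first-phase library A1 (log2 fold -0.61, adjusted p = 0.199), without rest-phase A2 (0.0746) or with total reads (-0.62, 0.171). Cpt2 showed 1 change, 11.6 kb before its start (chr4:107935212-107935611), with levels of 6.15, 6.18, 6.51 and 6.20 in the rest phase, against 4.71, 5.88, 5.42 and 5.56 in the first. The log2 fold was 0.77 (SE 0.25, limma adjusted p = 0.0253), which ranged between 0.63 and 0.79 and did not pass when any of 5 libraries was left out (first-phase A1 and B1, and rest-phase A1, A2 and B1). Its start peak (chr4:107923440-107923839) did not pass (log2 fold -0.24, limma adjusted p = 0.247), although it passed as lower with scaling to total reads (-0.68, adjusted p = 0.0156).

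Of the dehydrogenases, neither had a called peak between these phases. The start peak of Acadm (chr3:153944443-153944842) was the strongest of the 55 and lay between 9.37 and 9.73 in the rest phase, against 9.16 to 9.61 in the first (log2 fold 0.18, SE 0.15, limma adjusted p = 0.374). Its sign turned with the scaling: -0.56 with total reads and -0.09 with the authors' scaling. The only Acadvl peak (chr11:70015218-70015617), over its start, lay at 6.76 to 7.20 in the rest phase, against 7.41 to 7.57 in the first. These groups did not overlap, but the log2 fold of -0.48 (SE 0.21) did not pass (limma adjusted p = 0.0855) and was 0.36 with the authors' scaling.

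The trifunctional protein genes held the largest loss at a start peak. The peak over both divergent starts of Hadha and Hadhb (chr5:30154971-30155370) had levels of 6.39, 7.14, 7.97 and 8.11 in the rest phase, against 8.34, 8.33, 8.46 and 8.53 in the first. All rest-phase libraries were below all first-phase ones, and the A libraries were the lowest. The log2 fold was -1.11 (SE 0.34, limma adjusted p = 0.0181). It did not pass without first-phase library B1 (adjusted p = 0.0661), without B2 (0.0646) or with the authors' scaling (log2 fold -0.73, 0.408). Within Hadha a peak over another annotated start (chr5:30126733-30127132) was higher, at 7.81, 7.20, 6.41 and 6.24 in the rest phase, against 5.48, 4.54, 5.22 and 5.83 in the first (log2 fold 1.53, SE 0.37, limma adjusted p = 0.0042). A peak at chr5:30132137-30132536 in the gene was lower (-1.19, SE 0.32, limma adjusted p = 0.0084), but not with scaling to total reads (-0.66, 0.123). The largest loss among the 55 peaks, at chr5:30114347-30114746, carries the symbol Hadha but lies in exon 4 of 6 of a transcript within Garem2, an adaptor of growth factor signalling. Its levels were 5.07, 5.39, 3.36 and 4.97 in the rest phase, against 7.00, 7.09, 7.19 and 6.25 in the first (log2 fold -2.11, SE 0.43, limma adjusted p = 0.00135).

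The thiolase Acaa2 had 1 lower peak of 11, at 30.1 kb past an inner annotated start (chr18:74823526-74823925). Levels were 4.86 to 5.35 in the rest phase, against 5.70 to 6.36 in the first. The log2 fold was -0.96 (SE 0.29, limma adjusted p = 0.0154), -0.39 (0.311) with scaling to total reads and 0.07 with the authors' scaling. Its start peak (chr18:74778705-74779104) did not pass (0.28, SE 0.19, limma adjusted p = 0.281) and stood at -0.24 with total reads. The peroxisomal Acox3 had 1 higher peak of 9, in intergenic sequence 24.3 kb past an inner annotated start (chr5:35631216-35631615). Levels there were 5.63, 5.94, 5.59 and 5.35 in the rest phase, against 4.51, 4.09, 4.32 and 4.22 in the first, with no overlap (log2 fold 1.30, SE 0.29, limma adjusted p = 0.00266). The Acox3 start peak (chr5:35582957-35583356) did not pass (-0.16, SE 0.24, limma adjusted p = 0.625; 0.29 with the authors' scaling), nor did the single Hadhb peak (chr5:30155880-30156279; -0.47, SE 0.32, adjusted p = 0.266; 0.41 with the authors' scaling).

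**Figure D2:**
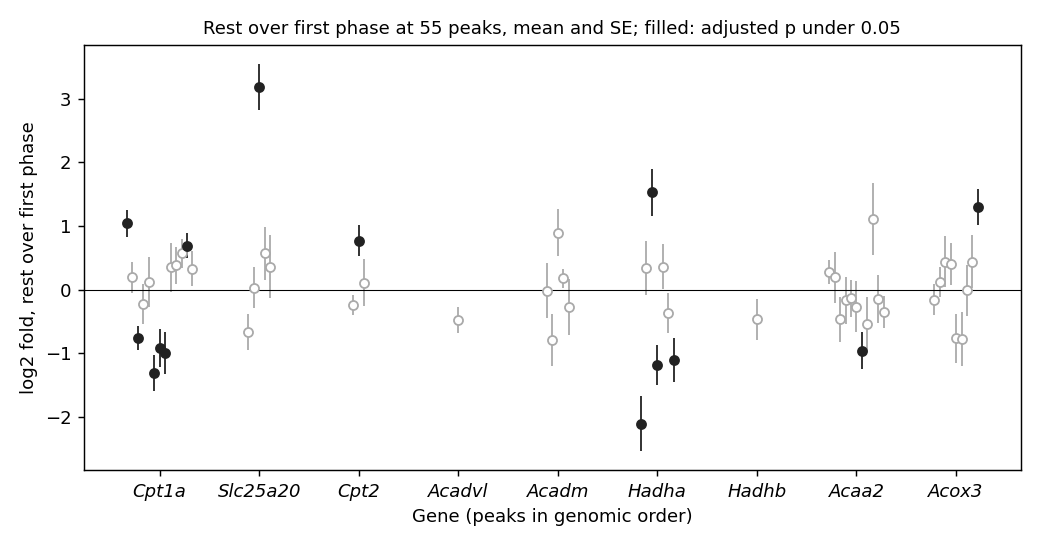
Log2 fold of the rest phase over the first phase at each of the 55 peaks, by gene and in genomic order, with bars for the standard error (4 rest-phase against 3 first-phase samples). Filled points passed at an adjusted p under 0.05: 6 lie above 0, led by Slc25a20 at 3.19, and 8 below, led by Hadha at -2.11.

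In the wider pathway, 46 further genes of fatty acid activation, oxidation and control were listed, of which 45 had 266 peaks and Cpt1b had none. In the rest phase against the first, 19.8% of all peaks were higher and 18.9% lower. Of the 266 pathway peaks 35 were higher and 42 lower, with a median log2 fold of -0.05. The largest gains were near Hsd17b10, a mitochondrial dehydrogenase of branched-chain oxidation (3.14, SE 0.28), Scp2, a peroxisomal thiolase and lipid carrier (3.00, SE 0.29), Abcd3 (2.93, SE 0.23) and Abcd2 (2.44, SE 0.42), both peroxisomal acyl-CoA importers. The largest losses were near Crot, the peroxisomal carnitine octanoyltransferase (-3.62, SE 0.30), in 2 peaks assigned to the coactivator Ppargc1a (-3.40, SE 0.46, and -3.32, SE 0.66), and near Abcd2 (-3.27, SE 0.39). The limma adjusted p of these 8 peaks was 0.00109 or lower. The Ppargc1a peaks lie over 200 kb from its start.

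The second phase was set against the rest phase to see what IFN-γ and LPS changed. With all 4 libraries of each phase 0 of the 55 peaks passed in limma, and 6 had an unadjusted p under 0.05. The background was 0% (0 of 139557 peaks, with 15966 at an unadjusted p under 0.05), and 0.135% with the authors' scaling, under which 0 members passed as well. Without second-phase libraries A1 and B1, a choice made after seeing the data from the response genes above, 6 members were higher and 3 lower (16.4% called). The background in that comparison was 15.2%, with 9.14% higher and 6.11% lower. The median log2 fold of the members was -0.10, against -0.15 over all peaks. With total reads 6 were higher and 3 lower (background 14.1%), and with the authors' scaling 2 and 0 (background 3.01%). Since A2 and B2 were kept for their levels of other response genes, these folds describe 2 libraries and not the labelled group as a whole.

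Among all peaks within 1 kb of a start 4.38% were higher and 7.62% lower without A1 and B1. Of the 21 member peaks of that class 0 were higher and 2 lower. None of the 9 start peaks was among the 9 that passed. The largest gain was inside Acox3 (chr5:35609674-35610073), 2.7 kb past an annotated start, with levels of 4.21, 7.80, 3.45 and 8.08 in second-phase A1, A2, B1 and B2, against 3.93, 4.29, 5.24 and 5.26 in the rest phase. A2 and B2 stood above all other 10 libraries, while A1 and B1 were near or below the rest phase. The log2 fold without A1 and B1 was 3.25 (SE 0.42, limma adjusted p = 0.000858), and 1.15 (SE 0.91, adjusted p = 0.601) with them. A2 and B2 were also the highest libraries in intergenic sequence past Acaa2 (chr18:74875446-74875845), where B1 too lay above the rest phase, at 3.49, 6.33, 4.80 and 6.44 in the second phase, against 3.22, 3.10, 3.70 and 3.65 in the rest phase (3.08, SE 0.35, limma adjusted p = 0.000522 without A1 and B1; 1.92, SE 0.59, adjusted p = 0.422 with them). The nearest coding gene of this peak in RefSeq is Lipg, endothelial lipase. A second peak in that stretch (chr18:74869933-74870332) had a log2 fold of 1.51 (SE 0.46, limma adjusted p = 0.0482) without A1 and B1, and 0.91 (SE 0.45, adjusted p = 0.451) with them.

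Cpt1a held a pair of intronic gains. In intron 5 of 10 (chr19:3359893-3360292) the levels were 6.92, 8.90, 6.72 and 8.71 in the second phase, against 6.82, 6.92, 6.81 and 7.24 in the rest phase. A2 and B2 were again above the other libraries, with a log2 fold of 1.66 (SE 0.20, limma adjusted p = 0.000605) without A1 and B1, and 0.74 (SE 0.39, adjusted p = 0.467) with them. In intron 3 (chr19:3353304-3353703) they were 3.49, 5.79, 3.82 and 5.32, against 3.18, 3.36, 3.70 and 3.79 in the rest phase (2.15, SE 0.37, limma adjusted p = 0.00382 without A1 and B1; 1.15, SE 0.51, adjusted p = 0.43 with them). The peak before the Cpt1a start (chr19:3321564-3321963), which was higher in the rest phase than in the first, was lower here, at 7.82, 7.07, 7.75 and 6.57, against 7.85, 7.92, 8.01 and 7.91 in the rest phase. Its log2 fold was -1.03 (SE 0.20, limma adjusted p = 0.00633) without A1 and B1, and -0.55 (SE 0.25, adjusted p = 0.428) with them.

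The intergenic Acox3 peak at chr5:35631216-35631615, also higher in the rest phase than in the first, was lower in A2 and B2 too. It had 5.64, 4.45, 6.35 and 4.61 in the second phase, against 5.63, 5.94, 5.59 and 5.35 in the rest phase (-1.14, SE 0.31, limma adjusted p = 0.0287 without A1 and B1; -0.39, SE 0.42, adjusted p = 0.709 with them). A peak inside Acadm (chr3:153935909-153936308) had 4.84, 3.22, 5.19 and 3.65 in the second phase, against 5.35, 5.17, 4.51 and 4.36 in the rest phase (-1.46, SE 0.40, limma adjusted p = 0.0334; -0.65, SE 0.47, adjusted p = 0.574 with A1 and B1). The Cpt2 peak 11.6 kb before the start was higher in both comparisons, here at 6.25, 7.14, 5.87 and 7.41 in the second phase, against 6.15, 6.18, 6.51 and 6.20 in the rest phase (1.00, SE 0.24, limma adjusted p = 0.0167 without A1 and B1; 0.39, SE 0.33, adjusted p = 0.625 with them). Since these comparisons share the rest-phase libraries, the folds of a peak in them are not independent.

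**Figure D3:**
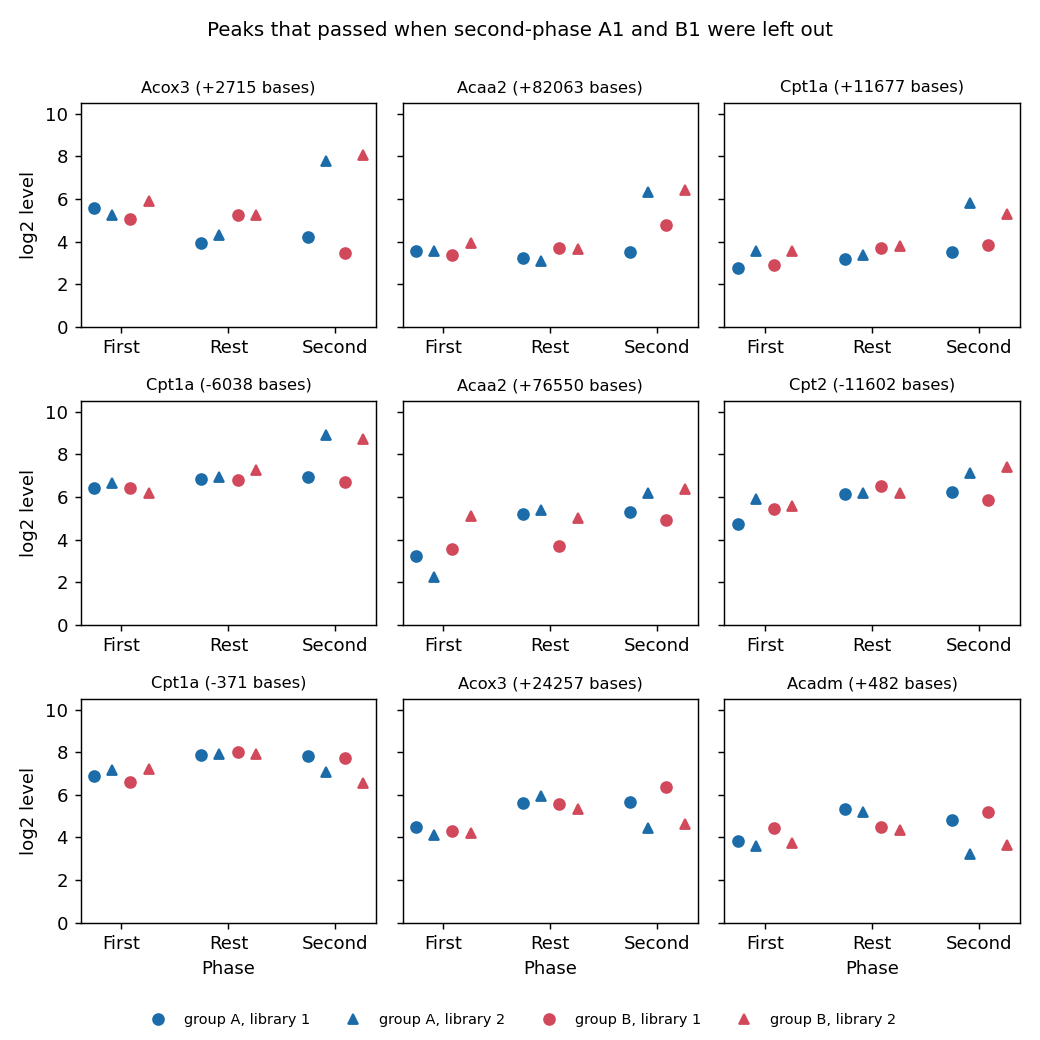
Log2 level in the 12 libraries of the 9 peaks that passed in the second phase against the rest phase without second-phase A1 and B1, with the distance of each peak from its nearest annotated start. Triangles (library 2) of the second phase stand apart from the rest phase, as at Acox3 with 7.80 and 8.08. Circles (library 1) lie closer to it, with B1 above it at 4.80 in the Acaa2 peak of the top row and at 6.35 in the lower Acox3 peak.

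With all libraries the wider pathway had 0 of 266 peaks called in the second phase against the rest phase (background 0%). In limma 31 of them had an unadjusted p under 0.05, beside 15966 of all 139557 peaks. Without A1 and B1, 9.14% of all peaks were higher and 6.11% lower. The wider pathway had 23 higher and 20 lower without these libraries. The largest gains without them were near Phyh, the peroxisomal phytanoyl-CoA hydroxylase (3.86, SE 0.41), in 2 peaks of Abcd3 (2.93, SE 0.42, and 2.82, SE 0.48) and near Eci2, an enoyl-CoA isomerase (2.83, SE 0.37). The largest losses were in Acacb, the acetyl-CoA carboxylase whose product malonyl-CoA inhibits Cpt1a (-1.95, SE 0.33), Hsd17b4, the peroxisomal bifunctional enzyme (-1.62, SE 0.48), Abcd3 (-1.55, SE 0.46) and Ech1, a dienoyl-CoA isomerase (-1.47, SE 0.40). The limma adjusted p of these 8 peaks was 0.0439 or lower.

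Within phases, groups A and B address whether diabetes of the donor leaves a mark, although which of them is diabetic is not known from the files. In the first phase 0 of the 55 peaks were called in the authors' deposited table, where the background was 0% (812 of 139999 peaks had an unadjusted p under 0.05, and 0 members did). limma on the recovered reads called 0 of 55 as well, and 0 of all 139557 peaks. In limma 3 members had an unadjusted p under 0.05, beside 5214 of all peaks. The limma log2 folds of the members, A over B, ran between -1.31 and 0.71.

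In the rest phase the authors' deposited table called 16 of the 55 peaks (29.1%) higher in A and 0 lower, against a background of 39.8% (39.7% higher, 0.0929% lower). All 55 deposited folds were above 0, with a median of 0.92 beside 1.04 over all peaks. In the deposited means a read counted 0.891 and 0.953 in the A libraries, against 0.793 and 0.939 in the B libraries. Depth was 18602644 and 15990425 reads in A, against 5454821 and 8770052 in B, so this scaling did not even out depth. The part of depth in the deposited folds was not tested. None of the 9 start peaks was called in the authors' deposited table. With quantile scaling limma called 2 peaks higher and 8 lower, against a background of 12.0% (6.48% higher, 5.56% lower), and 39 of the 55 folds were below 0. With total reads the counts were 4 higher and 8 lower (background 21.4%, of which 13.1% higher and 8.29% lower), and with the authors' scaling 23 higher and 0 lower (background 55.3%, of which 54.9% higher and 0.461% lower). Over all peaks these scalings gave median log2 folds of -0.02, -0.06 and 1.31, so directions below are relative to a median that depends on the scaling. No member passed in limma when any 1 rest-phase library was left out (0 of 139557 peaks then passed in each case, with 18206 to 46065 at an unadjusted p under 0.05).

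Under quantile scaling 4 start peaks were lower in A than in B, and each had a deposited fold above 0. The Hadha and Hadhb start had levels of 6.39 and 7.14 in A, against 7.97 and 8.11 in B, and the limma log2 fold was -1.16 (SE 0.22, adjusted p = 0.0118). The authors' deposited table has 0.18 for it. The Slc25a20 start had 6.54 and 6.93 in A, against 7.74 and 7.46 in B (-0.81, SE 0.18, limma adjusted p = 0.0223; the authors' deposited table gave 0.60). The Acox3 start had 7.66 and 7.58 in A, against 8.28 and 8.47 in B (-0.64, SE 0.12, limma adjusted p = 0.0124; the authors' deposited table gave 0.46). The Acaa2 start had 8.81 and 8.75 in A, against 9.42 and 9.32 in B (-0.51, SE 0.09, limma adjusted p = 0.00804; the authors' deposited table gave 0.38). In each of these the A libraries lay below the B libraries on this scale. With total reads the folds were below 0 as well, while limma with the authors' scaling gave folds above 0 (0.34 to 0.78, adjusted p 0.344 to 0.686). Among all peaks within 1 kb of a start 12.9% were lower and 3.98% higher under the same test, and 5 and 1 of the 21 member peaks of that class were. The share of reads in such peaks was 33.4% and 35.0% in the A libraries, against 40.8% and 41.9% in the B libraries. The part of this share, and of the deeper reads of A, in the lower start peaks was not tested.

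The 2 peaks higher in A under all 3 scalings were also those with the largest folds of the members in the authors' deposited table. The peak over the inner Hadha start (chr5:30126733-30127132) had 7.81 and 7.20 in A, against 6.41 and 6.24 in B, with a log2 fold of 1.13 (SE 0.21, limma adjusted p = 0.0107) and of 2.29 in the authors' deposited table. The other, in intron 4 of Slc25a20 (chr9:108679311-108679710), was chosen after its values were seen. It had 5.56 and 5.12 in A, against 3.53 and 3.79 in B, with a log2 fold of 1.77 (SE 0.36, limma adjusted p = 0.0156) and of 2.37 in the authors' deposited table. The wider pathway had 88 peaks higher and 0 lower of 266 in the authors' deposited table (39.7% and 0.0929% over all peaks). With limma under quantile scaling it had 11 higher and 19 lower (6.48% and 5.56% over all peaks).

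**Figure D4:**
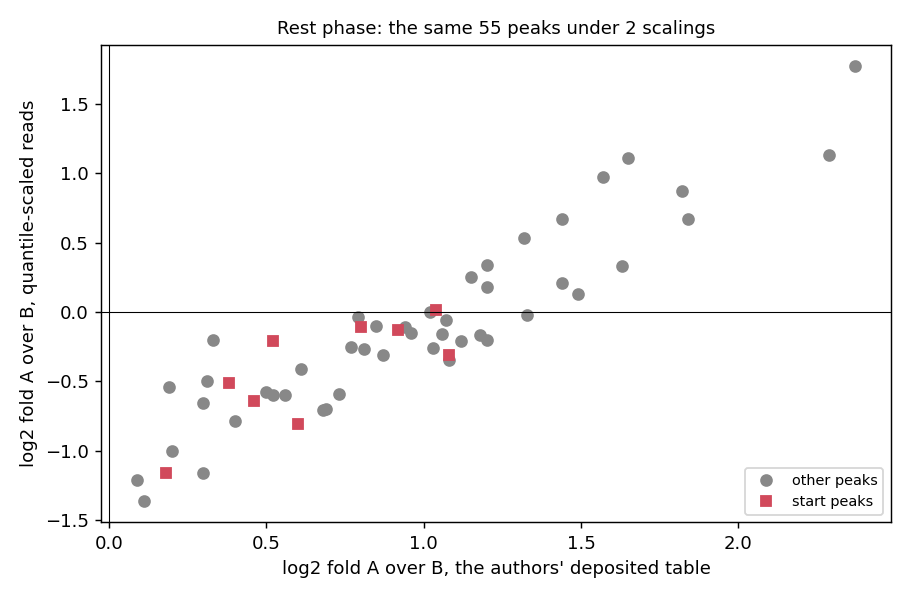
Log2 fold of A over B in the rest phase at the 55 peaks, as deposited by the authors (horizontal) and from quantile-scaled reads (vertical). Squares are the 9 start peaks. All peaks lie right of 0 on the deposited scale, while 39 lie below 0 on the quantile scale.

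In the second phase the authors' deposited table called 10 of the 55 peaks (18.2%) higher in A and 0 lower, against a background of 26.7% (26.7% higher, 0.00429% lower), with a median fold of 0.82 beside 0.86 over all peaks. The A libraries held 17980427 and 10288843 reads in peaks, against 3827344 and 6067273 in the B libraries. The part of depth in these calls was not tested. The 10 called peaks were 5 of Cpt1a, 3 of Hadha, 1 of Acaa2 and the Acadvl start. The Cpt1a peaks included that over its RefSeq start (chr19:3323111-3323510, deposited log2 fold 1.43). They also included chr19:3321564-3321963 (1.68) and chr19:3322241-3322640 (1.41), the latter over an annotated start. Among the Hadha peaks was that over the inner start (chr5:30126733-30127132, 1.30). The Acadvl start had a log2 fold of 1.30 in the authors' deposited table, while its scaled levels were 6.91 and 6.74 in A, against 6.87 and 6.64 in B. limma called 0 of 55 in this comparison under each of the 3 scalings (0 of all 139557 peaks, with 1076 at an unadjusted p under 0.05 under quantile scaling and 0 of them members). Libraries A1 and B1, which stood near the rest phase, belong to different groups, and without them 1 library a group remains, so no test was made.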

How the data were processed

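ATAC-seq of 12 libraries was used, with 1 deposited table per phase of the same 139999 peaks. Per the submitters' processing notes the build was mm10 and the tools included DESeq2, DiffBind 3.14.0, HOMER 5.1, Bowtie2 2.5.4, MACS2 and Picard 3.2.0, with no role stated. The authors deposited, for each peak, the log2 mean of normalised reads of either group, a shrunken log2 fold, a p-value and an adjusted p-value. Deposited folds were given the direction A over B, which meant turning the sign in the first-phase and second-phase tables. Each group mean was solved for the 1 pair of whole reads that gives it (largest relative miss 3.48e-09), which left 139557 peaks with reads in all libraries. The 442 peaks listed at 0 in a group were left out. Reads were quantile-scaled over the libraries compared and tested as log2 (value + 1) with limma 3.58.1 (trend) in R 4.3.3, Benjamini-Hochberg adjusted over all peaks at 0.05. Between phases groups A and B were pooled (n = 4 in the rest and second phases, n = 3 in the first). Within phases the authors' deposited calls came first and limma was the alternative. Other scalings, pseudocounts, filters and left-out libraries were tried. The recovery of reads and the limma fits were tested on simulated data. Named peaks are the start peaks, every member peak called between phases, and the 4 largest changes each way of the wider pathway. Further peaks called between A and B were named after their values were seen. Members and lists were chosen with earlier results of these data known.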

Additional observations from a re-analysis of the deposited data

Results flagged for a closer look

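The start peaks and the member peaks called in the rest phase against the first, 21 in all, were examined in the 3 phases. Of these 63 groups of 4 libraries, 5 had a library far from the other 3, where chance gives about 1 in 20. Peaks called only in the second phase against the rest phase were not examined. In the first phase the lowest library of the Acaa2 start (chr18:74778705-74779104) was at a level of 8.61, and that of the RefSeq start of Cpt1a (chr19:3323111-3323510) at 8.22. Both are group B, library 2, which also had the lowest promoter share of reads in that phase (48.8%). The intergenic Acaa2 peak (chr18:74823526-74823925) had a high library in the rest phase (5.35, A2) and in the second (5.51, B1). The Cpt2 peak before the start (chr4:107935212-107935611) had a high library in the rest phase (6.51, B1). The part of any of these in the results was not tested.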

How the results depend on the processing

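No paired analysis was possible because the recovered libraries carry no replicate number from the labels. The rest-phase count of members called between A and B, 16 as deposited, was 10 with limma under quantile scaling, 5 at an adjusted p under 0.01 and 0 to 0 with each library left out. The second-phase count, 10 as deposited, was 0 under all 3 scalings, 0 at 0.01 and 0 to 0 with each library left out. The count of 14 for the rest phase against the first was 6 with the authors' scaling, 8 at 0.01 and 11 to 16 with each library left out. The count of 0 for the second phase against the rest phase became 9, 9 (total reads) and 2 (authors' scaling) without second-phase A1 and B1, and was 0 in the other settings run. Other counts were within 1.5 times those reported.

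Folds of A over B at start peaks in the rest phase were above 0 in the authors' deposited table and in limma with the authors' scaling (0.34 to 1.38). With quantile scaling and total reads they were -0.51 and -0.87 (Acaa2 start; -0.56 to -0.45 with each library left out), -0.21 and -0.69 (Acadm; -0.29 to -0.16), -0.31 and -0.02 (Acadvl; -0.40 to -0.23), -0.64 and -0.68 (Acox3; -0.71 to -0.53), -0.11 and -0.29 (Cpt2; -0.25 to 0.02), -1.16 and -1.07 (Hadha; -1.58 to -0.84), -0.13 and -0.22 (Hadhb; -0.45 to 0.17) and -0.81 and -0.63 (Slc25a20; -1.04 to -0.65). The Cpt1a start peak, at an inner transcript, was at -0.04 with total reads (-0.07 to 0.09 with each library left out). The peak over the RefSeq start of Cpt1a (chr19:3323111-3323510) was at -0.31 with quantile scaling (SE 0.13, limma adjusted p = 0.146). In the rest phase against the first, sign turned at Acaa2 (-0.24, total reads), Acadm (-0.56, total reads; -0.09, authors' scaling) and, with the authors' scaling, Acadvl (0.36), Acox3 (0.29), Hadhb (0.41), Acaa2 74823526 (0.07) and Cpt1a 3339191 (0.04). In the second phase against the rest phase, the Acox3 start was at 0.34, 0.36 and 0.31, and the Hadha start at 0.49, 0.48 and 0.43, without A1 and B1 under quantile, total and authors' scaling. Cpt1a was at -0.27 (authors' scaling) and Cpt2 at -0.06 (total reads) and -0.35 (authors' scaling). With each library left out these ranged between -0.16 and 0.15 (Acox3), -0.00 and 0.09 (Cpt2) and -0.59 and 0.09 (Hadha). The cause of these changes was not tested. The shallowest libraries, second-phase B1 with 3827344 reads and first-phase A1 with 4180015, limit the weakest peaks.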
